A study of Mus musculus with 24 samples.

Results

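The 10 genes described here encode the core of nucleotide excision repair, the pathway that removes ultraviolet lesions from DNA. They are Ddb1, Ddb2, Xpc, Xpa and the excision repair cross-complementation genes Ercc1, Ercc2, Ercc3, Ercc4, Ercc5 and Ercc6. They were chosen by symbol, and 10 of 10 matched a mouse Ensembl identifier among the 17721 genes of the table. The study profiled back skin epidermis of male C57BL/6 mice aged 8 weeks with a knockout of the clock's central activator BMAL1, encoded by Arntl, through a Cre recombinase under the keratin 14 promoter, which is active in keratinocytes. Per the design text the clock remained in all other tissues, and epidermal cells that are no keratinocytes, such as Langerhans cells, are not a target of that promoter. These EpiKO mice, 24 in all, were collected at 6 times of day, 4 mice at each, at intervals of 4 h. Times are zeitgeber times (ZT), counted in hours from lights on, and the dark phase began at ZT12. The authors had fitted daily rhythms in EpiKO and wild-type (WT) epidermis with dryR, and the table of that fit is the only file used. The WT mice belong to no sample listed here, and the table holds no value per animal, so depth is unknown and no spread between animals can be given.

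In nucleotide excision repair a lesion is first recognised, then the strand around it is opened and checked, cut on both sides, removed as a short stretch and filled in. Over the whole genome DDB2 and XPC find the lesion, DDB2 acting with DDB1 as part of a ubiquitin ligase. In transcribed strands the stalled RNA polymerase and ERCC6 (CSB) do so. TFIIH, with the helicases ERCC3 (XPB) and ERCC2 (XPD), opens the helix, XPA verifies the damage and holds the complex together, and the nucleases ERCC5 (XPG) and ERCC4-ERCC1 (XPF-ERCC1) cut. Loss of several of these genes in people causes xeroderma pigmentosum, Cockayne syndrome and related disorders with extreme sun sensitivity. XPA is also known as a clock-controlled protein in mouse skin.

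For each gene the table gives a weight from 0 to 1 to 5 rhythm models: no rhythm, a rhythm in EpiKO only, in WT only, the same rhythm in both, or different rhythms. A weight is the relative support for a model within the 5 and is no p-value. A gene was assigned to the leading model when its weight was at least 0.5 and was otherwise left unassigned. Heights below are from trough to peak of the fitted curve, and folds are peak over trough.

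None of these 10 genes was assigned a rhythm in WT that was absent in EpiKO. Of the 10 genes 6 were assigned no rhythm (56.7% of all genes were), 2 the same rhythm in both genotypes (16.7% of all genes) and 2 stayed unassigned (11.3% of all genes). None was assigned to WT only (8.41% of all genes), to EpiKO only (4.31%) or to different rhythms (2.65%). With 10 genes these shares lie near those of the table as a whole. All 6 Ercc genes, which encode the 2 helicases, the nucleases and the transcription-coupled recognition factor, were flat, a grouping seen after the values were known. The other 4 genes, Ddb1, Ddb2 and Xpc of global genome recognition and Xpa of verification, were rhythmic or unassigned.

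**Figure D1:**
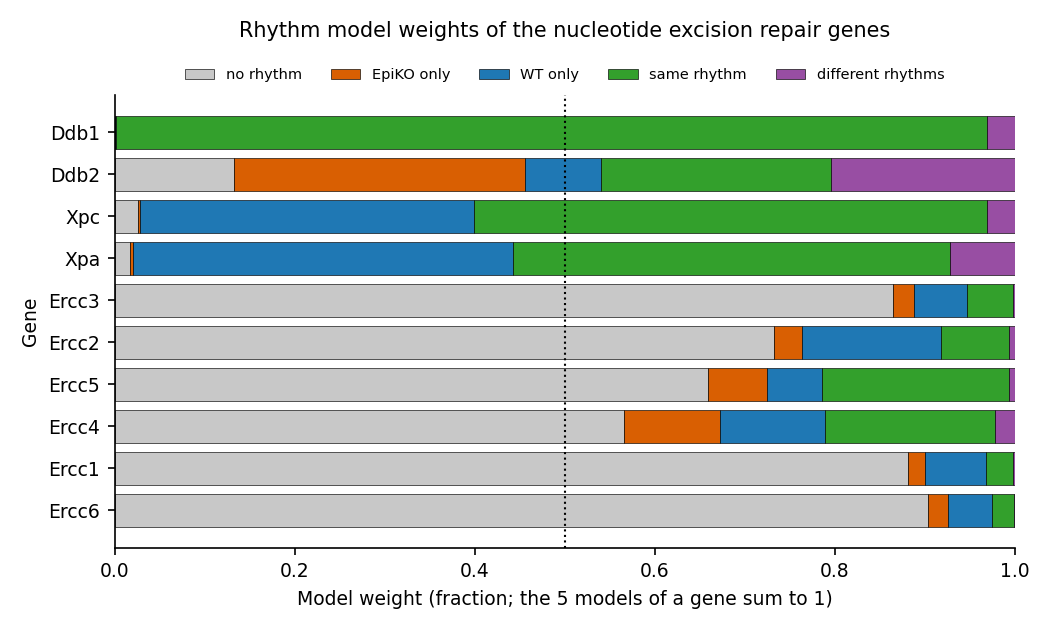
Stacked bars give the weights of the 5 rhythm models for each of the 10 genes, in the order of the pathway's steps; the dotted line marks 0.5. The grey part (no rhythm) passes 0.5 in the 6 Ercc genes and in none of the other 4, and the green part (same rhythm) leads in Ddb1, Xpc and Xpa.

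The proximal promoters of 3 members are shown because BMAL1 binds E-boxes and because these genes cover the patterns seen: Xpa has the largest height among them, Ddb1 the firmest shared rhythm and Ercc6 the firmest absence of one. The sequences are from RefSeq (GRCm38.p6), 5′ to 3′ on the gene's strand. Capitals mark matches, on either strand, to the E-box CACGTG, the related E-prime-box CACGTT, the D-box (TTATGTAA or TTACGTAA) or the ROR element core AGGTCA.
Xpa, the 250 bases before the start, chr4:46196312-46196561, minus strand: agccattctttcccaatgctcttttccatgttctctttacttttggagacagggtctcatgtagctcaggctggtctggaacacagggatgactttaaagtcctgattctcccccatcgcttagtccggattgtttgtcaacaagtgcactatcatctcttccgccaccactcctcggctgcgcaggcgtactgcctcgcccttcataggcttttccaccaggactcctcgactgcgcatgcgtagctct
Ercc6, the 250 bases before the start, chr14:32513271-32513520, plus strand: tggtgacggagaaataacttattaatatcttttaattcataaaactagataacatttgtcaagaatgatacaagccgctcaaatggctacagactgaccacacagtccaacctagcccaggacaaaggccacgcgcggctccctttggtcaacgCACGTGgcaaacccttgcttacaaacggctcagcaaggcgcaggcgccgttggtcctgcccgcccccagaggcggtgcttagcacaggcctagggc
Ddb1, 30 bases around its match, chr19:10605563-10605592, plus strand: tctctggcctgcAACGTGtctcaggggcgg

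The Xpa window held none of these motifs. The Ercc6 window held 1 E-box, starting 96 bases before the start, although Ercc6 had the largest weight for no rhythm of the 10 genes. In the 250 bases before the RefSeq start of Ddb1 there was 1 E-prime-box, on the opposite strand, 22 bases before that start. The GENCODE span of Ddb1, given below, begins at 10605327, so this window, 10605347 to 10605596, lies inside the gene by that annotation. The same holds for the Ercc1 window, and those of Ercc2 and Ercc4 reach into their genes. Of 32851 promoter windows of that length 6.02% held an E-box, 3.85% an E-prime-box, 0.931% a D-box and 14.0% the AGGTCA core. The windows of Ercc1, Ercc2, Ercc4 and Ercc5 held none of the 4. Xpc, Ddb2 and Ercc3 were not analysed here for promoters. A match is only a run of letters, and its absence says nothing of sites outside the window.

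Ddb1 (ENSMUSG00000024740; chromosome 19, 10605327 to 10629819, mm10), the adaptor that links DDB2 to the CUL4 ubiquitin ligase, had the firmest rhythm of the 10 genes. Its weight for the same rhythm was 0.968 and for a rhythm in WT only 0.000602 in the authors' deposited table. The fitted curve peaked at ZT7.05, in the middle of the light phase, with a shared height of 0.178 (log2) in the authors' deposited table, which is 1.13-fold. In WT the fitted level was 13.01 at ZT0, 13.10 at ZT4, 13.12 at ZT8, 13.06 at ZT12, 12.97 at ZT16 and 12.95 at ZT20 (log2). The swing was small: of the 2954 genes with the same rhythm, whose median height was 0.316, 9.78% had a smaller height. The large weight for Ddb1 therefore went with a low-amplitude curve.

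Xpc (ENSMUSG00000030094; chromosome 6, 91489305 to 91515888, mm10), the lesion sensor of global genome repair, was the second gene with the same rhythm. Its support was divided, with 0.570 for the same rhythm and 0.370 for WT only in the authors' deposited table. The shared curve peaked at ZT8.52 with a height of 0.282 (log2) in the authors' deposited table, or 1.22-fold. Its fitted level in both genotypes rose from 9.74 at ZT0 through 9.88 at ZT4 to 9.97 at ZT8 and fell through 9.91 at ZT12 and 9.77 at ZT16 to 9.69 at ZT20 (log2). Of the same-rhythm genes 41.4% had a smaller height.

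Xpa (ENSMUSG00000028329; chromosome 4, 46155347 to 46196311, mm10), the damage verifier, narrowly missed assignment. The same rhythm had a weight of 0.486 and WT only 0.422 in the authors' deposited table, a ratio of 1.15. The leading shared curve had a height of 0.374 (log2) in the authors' deposited table, or 1.30-fold, the largest height fitted among the 10 genes. This curve peaked at ZT10.7 in the authors' deposited table, late in the light phase. Along it the fitted WT level was 7.27 at ZT0, 7.42 at ZT4, 7.59 at ZT8, 7.63 at ZT12, 7.48 at ZT16 and 7.31 at ZT20 (log2). The weights thus favour a rhythm of Xpa in WT and do not settle whether EpiKO had it too.

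Ddb2 (ENSMUSG00000002109; chromosome 2, 91211572 to 91236982, mm10), the ultraviolet lesion sensor and a p53 target, was the least certain gene. Its weights were 0.133 for no rhythm, 0.323 for EpiKO only, 0.0841 for WT only, 0.256 for the same rhythm and 0.204 for different rhythms in the authors' deposited table. The leading curve, in EpiKO alone, peaked at ZT4.89 with a height of 0.326 (log2) in the authors' deposited table. No class can be given to Ddb2 from these weights.

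**Figure D2:**
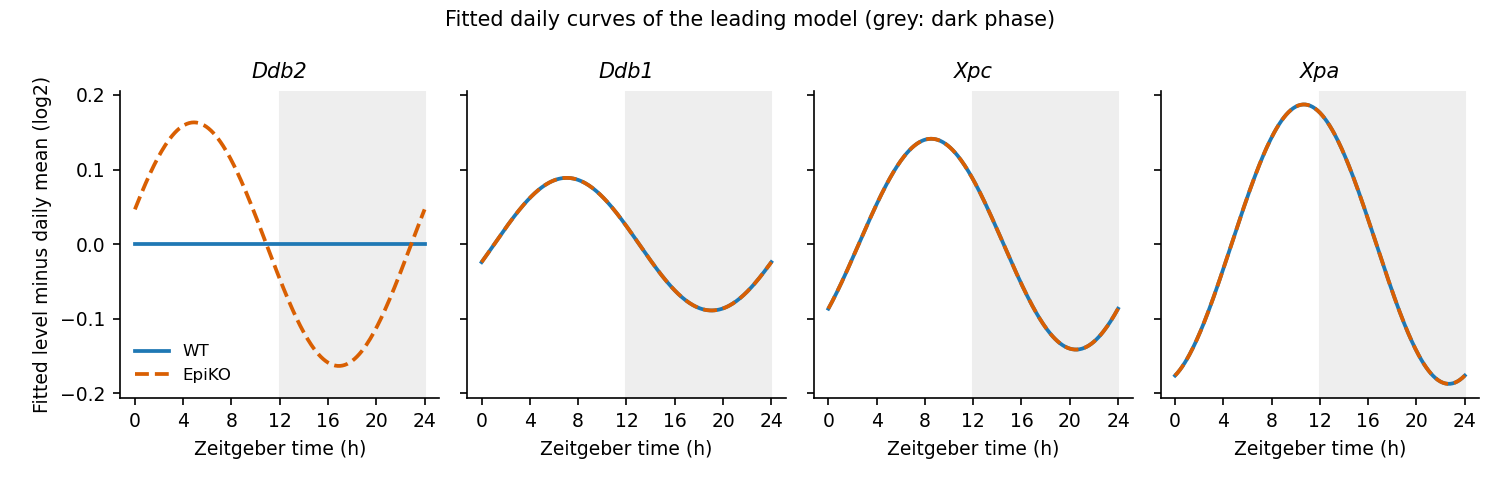
Fitted curves of the leading model over zeitgeber time (h), as log2 difference from the daily mean, for Ddb2, Ddb1, Xpc and Xpa, with WT as solid blue and EpiKO as dashed orange lines. In Ddb1, Xpc and Xpa 1 curve serves both genotypes, so the lines coincide by construction, with peaks at ZT7.05, ZT8.52 and ZT10.7; Ddb2 and Xpa had leading weights under 0.5.

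Adding the weights of the models with a rhythm in a given genotype separates the question of a WT rhythm from that of an EpiKO rhythm. For a rhythm in WT the sum was 0.9996 for Ddb1, 0.980 for Xpa, 0.972 for Xpc and 0.544 for Ddb2. In EpiKO it was 0.999 for Ddb1, 0.783 for Ddb2, 0.603 for Xpc and 0.561 for Xpa. The sums for Xpa and Xpc were thus near 1 in WT and only modestly above 0.5 in EpiKO. A sum of at least 0.5 was reached by 4 of the 10 genes in WT (34.5% of all genes) and by 4 in EpiKO (29.2% of all genes), the same 4 genes each time. At a sum of at least 0.8, a limit chosen after seeing the data, there were 3 genes in WT and 1, Ddb1, in EpiKO. The shares of all genes at that limit were not computed, so these numbers have no background to be read against. The median sum over the 10 genes was 0.301 in WT and 0.299 in EpiKO, against 0.213 and 0.181 over all genes.

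The helicase, nuclease and transcription-coupled genes among the 10 were assigned no rhythm. Ercc3 and Ercc2, the 2 helicases of TFIIH, had weights for no rhythm of 0.865 and 0.732 in the authors' deposited table. The 3′ nuclease gene Ercc5 and the 5′ nuclease gene Ercc4 had lower ones, 0.659 and 0.566, with 0.208 and 0.190 for the same rhythm, in the authors' deposited table. Ercc1, the partner of ERCC4, had 0.882, and Ercc6, which couples repair to transcription, had 0.903 in the authors' deposited table. Ercc4 lay just inside the limit for no rhythm, so its flatness is less certain than that of Ercc1, Ercc3 and Ercc6. The table gives no height for a gene whose leading model is flat, so an upper bound on these rhythms cannot be stated.

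Mean levels over the day were compared by the authors with a model of 1 common mean and a model of separate means. Separate means were called, at a weight of at least 0.5, for 8 of the 10 genes, and for 70.1% of all genes, so the share called is near that of the table. Of the 8, 5 were higher in EpiKO (32.7% of all genes) and 3 lower (37.4% of all genes). With a difference of at least 0.5 (log2) as well, 1 was higher (11.7% of all genes) and 3 lower (23.7%). The median difference over the 10 genes was 0.06 (log2). That over all genes was 0, where every gene given 1 common mean has a difference of 0. The called differences thus lay in both directions, from -0.82 (Ercc2) to 0.54 (Ercc5). The median absolute difference was 0.28 (log2) over the 10 genes and 0.29 over all genes.

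Ercc2, Ercc6 and Ercc4 were lower in EpiKO. The authors' deposited table gives Ercc2 a mean (log2) of 8.56 in EpiKO against 9.38 in WT, a difference of -0.82. Ercc6 had 9.49 in EpiKO and 10.24 in WT in the authors' deposited table, a difference of -0.75, and Ercc4 9.29 and 9.98, a difference of -0.69. In linear terms the EpiKO means were 0.565, 0.593 and 0.619 of those in WT. Between 24.9% and 28.1% of all genes had a larger absolute difference than these 3.

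Ercc5, Ercc3 and Ddb1 were higher in EpiKO. The largest rise was that of Ercc5, from 9.67 in WT to 10.20 in EpiKO (log2) in the authors' deposited table, a difference of 0.54 or 1.45-fold. For Ercc3 the means were 9.45 and 9.10 in the authors' deposited table, a difference of 0.34, and for Ddb1 13.25 and 13.04, a difference of 0.21. Each of these 6 calls had a weight that rounds to 1. The 2 helicase genes of TFIIH and the 2 nuclease genes that cut on either side of the lesion therefore differed in opposite directions within each pair. For the helicases this rests on Ercc2, whose exon overlaps, given below, make its value less certain.

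Xpa and Ddb2 were called higher with less support. Xpa had 7.60 in EpiKO and 7.45 in WT, with a weight for separate means of 0.646, and Ddb2 8.61 and 8.48 with 0.732, in the authors' deposited table. Xpc (weight for separate means 0.168) and Ercc1 (0.146) were given 1 common mean in the authors' deposited table, 9.83 and 8.17 (log2). Per kilobase of annotated exon, Ddb1 stood at 10.36 in WT (log2), and the other 9 genes lay between 6.53 (Xpa) and 7.60 (Ercc3).

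**Figure D3:**
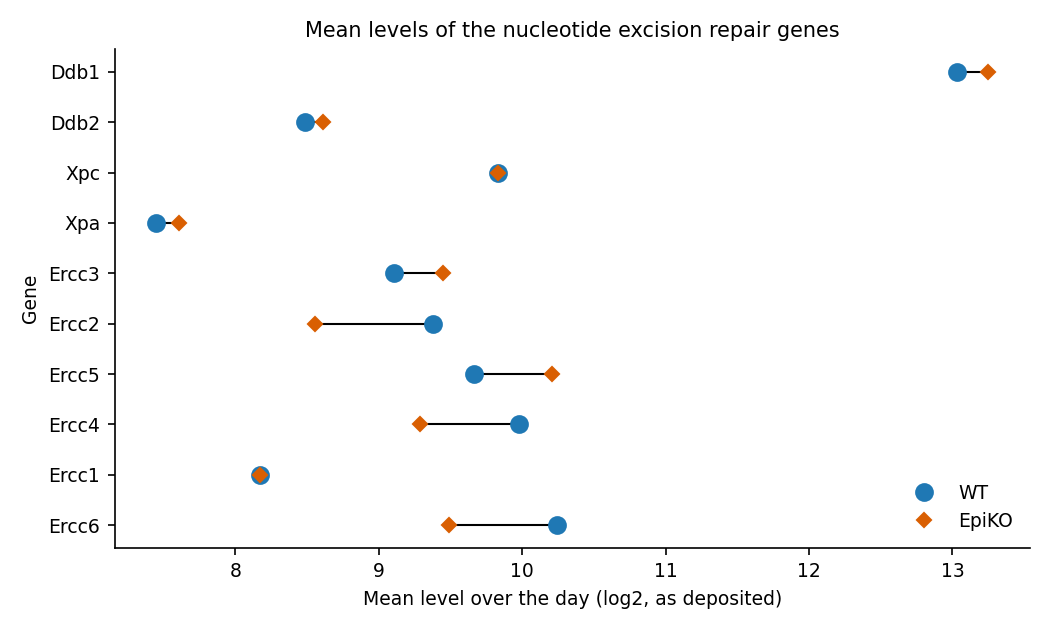
Mean levels over the day (log2, as deposited) in WT (blue circles) and EpiKO (orange diamonds) for the 10 genes, joined by a line; the table gives no error for them. Ercc2, Ercc4 and Ercc6 have EpiKO to the left of WT, Ercc5, Ercc3, Ddb1, Xpa and Ddb2 to the right, and the markers of Xpc and Ercc1 coincide because 1 common mean was fitted.

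How and when the WT libraries were made is not given in the sources, so a difference in their making and an effect of genotype cannot be told apart. Of 15 cell type markers 5 were called higher in EpiKO, 3 lower and 7 neither. The higher ones were Cd207 of Langerhans cells by 1.49, the leukocyte gene Ptprc by 1.06, the fibroblast collagen gene Col1a2 by 0.74, the endothelial gene Pecam1 by 0.51 and the suprabasal keratinocyte gene Ivl by 0.46 (log2). The lower ones were the keratin genes Krt10 (-0.29), Krt1 (-0.20) and Krt5 (-0.09). The keratinocyte markers stood at 9.70 or above in WT and the other cell types' markers at 7.99 or below in the authors' deposited table. Tyrp1 and Dct of melanocytes, Ivl and Krt1 were assigned the same rhythm, with peaks at ZT17.7, ZT17.3, ZT20.4 and ZT21.4. Their heights were 2.13, 1.40, 0.928 and 0.390 (log2), beside 0.374 for Xpa, the largest height fitted among the 10 genes. Trp63 stayed unassigned and the other markers were assigned no rhythm. The part of these markers in the results was not tested, and in bulk epidermis fewer cells of a type and less RNA per cell cannot be told apart. Arntl itself had a weight of 0.882 for a rhythm in WT only, and its target Dbp 0.979, in the authors' deposited table. Arntl was not lower in mean in EpiKO, at 9.65 against 9.50 (log2), with a weight for separate means of 0.719, in the authors' deposited table. The table has 1 level per gene and none for the deleted part, so this level is no check of the knockout. Per2 kept a rhythm in EpiKO, with a height of 1.54 against 6.12 in WT (log2) and a weight of 0.917 for different rhythms, in the authors' deposited table. That the columns not labelled WT are EpiKO rests on the comparison having no other side.

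Several members share ground with a neighbour on the opposite strand. Exons of Acp2 cover 23.8% of the exon length of Ddb2, and for Ercc2 the antisense gene Gm26852 covers 24.6% and Klc3 17.8%. Klc3 was also lower in EpiKO, by a difference of -0.27 (log2), and Acp2 had 1 common mean. Of the 51-base windows of Ddb2 and Ercc2, 17.7% and 28.9% are found in transcripts of other genes, against 3.65% or less for the other 8 genes. Windows were matched on either strand, so these shares can hold the exon overlaps just given and are no separate measure. The values of Ddb2 and Ercc2 are the least certain of the 10. Tkfc, which covers 5.12% of the exon length of Ddb1, also had the same rhythm (weight 0.714) with a peak at ZT4.75 in the authors' deposited table, and its mean was higher in EpiKO by 0.23 (log2), beside 0.21 for Ddb1. Cd3eap, with 3.41% of the exon length of Ercc1, shared a rhythm with a peak at ZT13.5 in the authors' deposited table and differed in mean by -0.87 (log2), while Ercc1 was flat with 1 common mean. Ncbp1, which shares 4.07% of the exon length of Xpa, had a shared peak at ZT18.8 in the authors' deposited table, 8.17 h from the Xpa curve. The part of these neighbours in the results was not tested. Xpc, Ercc3, Ercc4, Ercc5 and Ercc6 overlap no other gene, and among these 5 there were 2 higher means (Ercc3, Ercc5), 2 lower ones (Ercc4, Ercc6) and 1 common one.

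The partners of lesion recognition were mixed. Of 10 genes 5 had no rhythm, 3 were rhythmic in WT only and 1 had the same rhythm. Dda1, a DDB1-associated subunit of the CUL4 ligases, had a weight of 0.970 for WT only, a peak at ZT9.78 and a height of 0.517 (log2) in the authors' deposited table. Cul4b, a scaffold of those ligases, shared a curve with a peak at ZT4.53 and a height of 0.190, and Cetn2, a subunit of the XPC complex, was rhythmic in WT only with a peak at ZT1.21, in the authors' deposited table. Rad23b, Cul4a, Rbx1 and Usp7 were among the flat genes. The ligase around DDB1 thus held flat, shared and WT-only genes side by side.

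The other TFIIH subunits and the transcription-coupled genes had shared rhythms or none. Of 8 TFIIH genes 3 had the same rhythm, 3 none and 2 stayed unassigned, with shared peaks at ZT12.5 (Gtf2h1), ZT20.8 (Gtf2h4) and ZT0.186 (Gtf2h2) in the authors' deposited table. Their peaks were spread over the day. Of the 8 genes 7 had a higher mean in EpiKO (32.7% of all genes) and 1, Cdk7, a lower one (37.4% of all genes), by -0.63 (log2). The TFIIH helicase genes described above differed in opposite directions, by 0.34 for Ercc3 and -0.82 for Ercc2 (log2). Whether the TFIIH genes differ in this from all genes was not tested, and how the WT libraries were made is not given. Among 8 transcription-coupled genes 2 had the same rhythm, 3 none and 3 were unassigned. Uvssa, which brings a deubiquitinase to the stalled polymerase, peaked at ZT7.99 with a height of 0.449, and the nucleosome-binding gene Hmgn1 at ZT7.90 with 0.151 (log2), in the authors' deposited table. The peak times of Uvssa and Hmgn1 lie beside those of Ddb1 and Xpc, and those of the 3 TFIIH genes do not. Of all genes rhythmic in WT 36.9% peaked between ZT4 and ZT12.

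The gap left by excision is filled by the polymerases, clamp and ligases that also copy DNA in S phase, and most of these genes were rhythmic in WT. Of 21 such genes 10 were rhythmic in WT only, 4 had different rhythms, 4 had none, 3 were unassigned and none had the same rhythm. All 14 genes assigned a WT rhythm peaked between ZT12 and ZT20, against 36.7% of all genes rhythmic in WT. Pole, the catalytic subunit of polymerase epsilon, had a height of 1.23 (log2) at ZT14.4 in WT with a weight of 0.5003 for WT only, and the single-strand binding subunit Rpa2 0.911 at ZT13.6, in the authors' deposited table. Lig1, the replicative ligase, went from 1.04 at ZT14.5 in WT to 0.433 at ZT2.24 in EpiKO in the authors' deposited table. The median height of the 10 WT-only genes was 0.619, whereas the shared heights of Ddb1 and Xpc were 0.178 and 0.282. Whether the lists differ was not tested, because the genes of a list are not independent replicates.

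**Figure D4:**
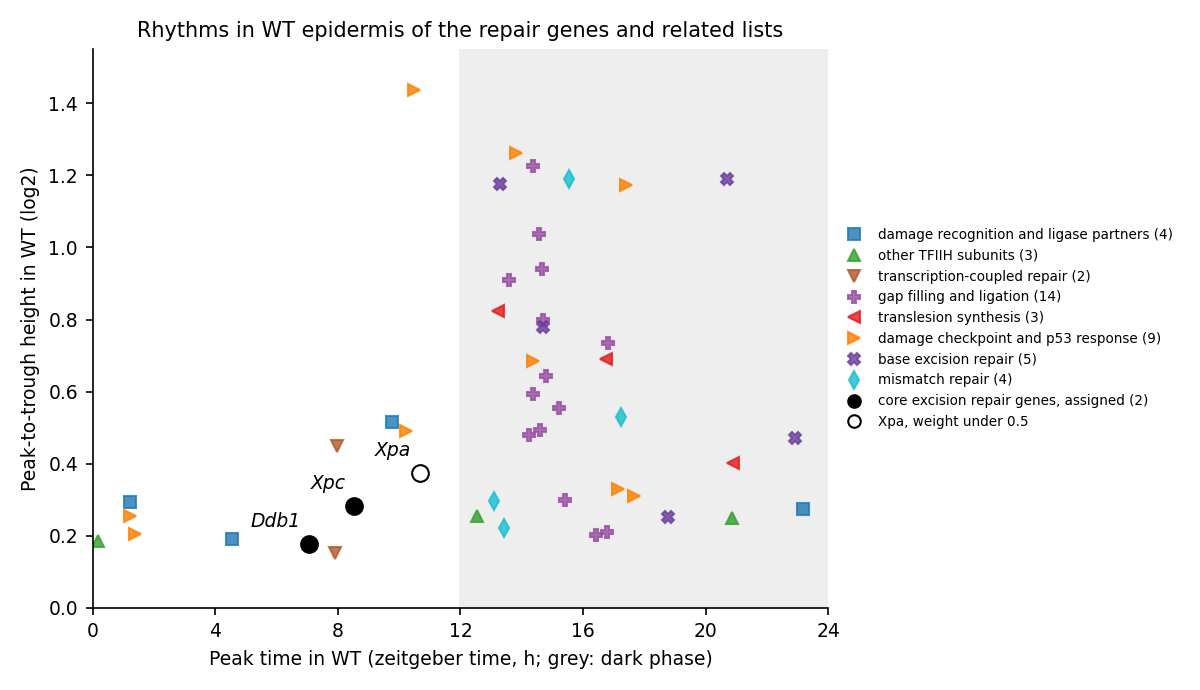
Peak time in WT (ZT, h) against peak-to-trough height in WT (log2) for each repair-related gene assigned a WT rhythm, by list, with Ddb1 and Xpc as filled and Xpa as an open black circle. The 14 gap filling and ligation genes (purple plus signs) lie between ZT13.6 and ZT16.8, while Ddb1, Xpc and Xpa lie in the light phase at low heights. The darker purple diagonal crosses are base excision repair genes.

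Genes of damage tolerance and of the checkpoint were mixed. Polh, the polymerase that copies past ultraviolet dimers, was rhythmic in WT only with a height of 0.403 (log2) and a peak at ZT20.9 in the authors' deposited table. Rad18, the ubiquitin ligase that calls such polymerases, peaked at ZT16.8 in WT and ZT6.39 in EpiKO in the authors' deposited table. The checkpoint kinase gene Atr shared a curve with a peak at ZT17.1, and its effector Chek1 was rhythmic in WT only with a height of 1.26 (log2), in the authors' deposited table. Of the 20 checkpoint and p53 genes 6 had a rhythm in WT alone, 1 in EpiKO alone, 2 shared one, 1 had different rhythms, 6 had none and 4 were unassigned.

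Base excision and mismatch repair gave a further scale. Of 18 base excision repair genes 10 had no rhythm, 1 was rhythmic in WT only, 1 shared a rhythm and 3 had different rhythms. The WT-only gene was Fen1, with a mean of 3.59 in EpiKO against 8.43 in WT (log2). At that low EpiKO level the absence of a rhythm says little. The uracil glycosylase gene Ung had a height of 1.18 (log2) at ZT13.3 in WT and 0.761 at ZT19.2 in EpiKO in the authors' deposited table. Of 7 measured mismatch repair genes 4 were rhythmic in WT only and none was flat, with Exo1 at a height of 1.19 and a peak at ZT15.6 in the authors' deposited table. Over all 99 related genes measured 25 were rhythmic in WT only, 10 of them gap filling and ligation genes, and 9 had the same rhythm. Among the 10 core genes these numbers were 0 and 2, and over all genes the shares were 8.41% and 16.7%. With 10 genes, 0 and 2 lie near the shares of all genes, and the related lists were chosen with earlier results known.

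**Figure D5:**
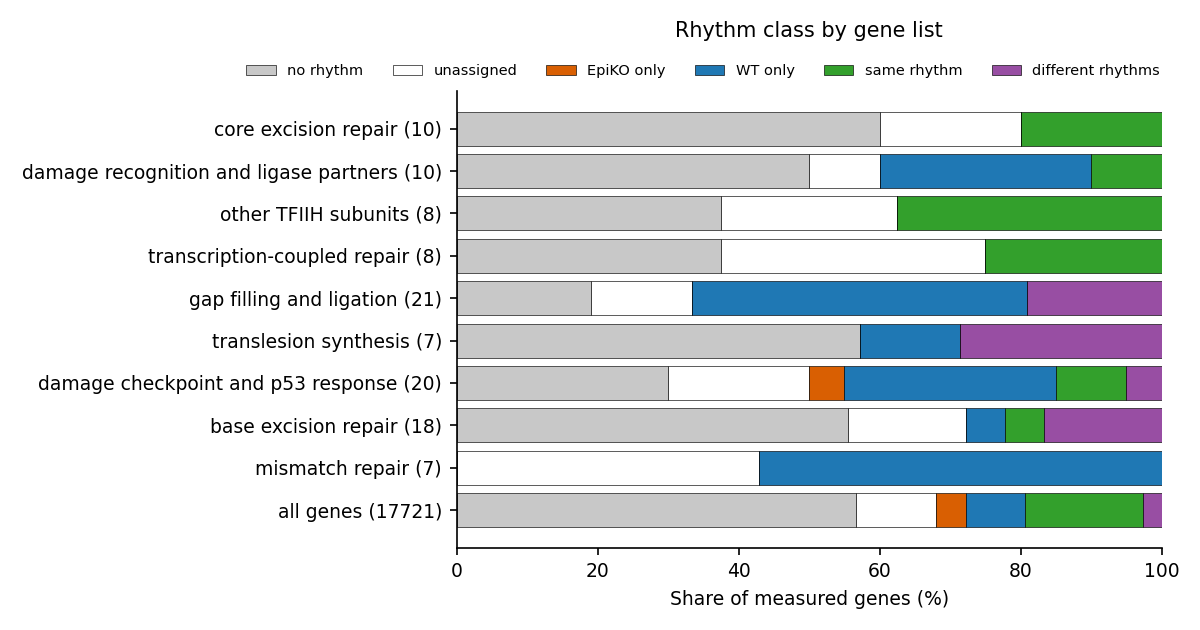
Share (%) of the measured genes of each list in each rhythm class, with the number of genes in brackets and all genes of the table in the last bar. The core excision repair bar holds 6 flat, 2 unassigned and 2 same-rhythm genes, and the gap filling and ligation bar holds 10 WT-only and 4 different-rhythm genes of 21.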

How the data were processed

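RNA of epidermal cells was measured in 24 EpiKO libraries, from a stranded kit for polyadenylated RNA per the labels' protocols. Per the submitters' processing notes, mm10 was the build and the tools included HISAT2 2.2.1 and featureCounts 1.6.0; the strand setting and the scaling of libraries are not given in the sources used here. In the deposited table each model has a score from 0 to 1, called its weight and derived from the Bayesian information criterion, and means are deposited as log2 values. The columns that are not labelled WT were read as EpiKO, the only other side of the comparison. Models were told apart by which genotype has coefficients. Heights equal 2 times the root of the summed squared coefficients (tolerance 1e-06) for 5062 EpiKO and 5914 WT rhythms. Where 1 common mean or curve was chosen, the table repeats it for both genotypes.

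Computed from the table were classes (weight at least 0.5), summed weights, folds, fitted levels and mean differences; no test of significance was run. Identifiers matched a symbol for 17720 of 17721 genes. Positions and exon overlaps are from GENCODE release M21 (mm10). The assignment was tested on simulated data whose rhythms were large against the noise, and weaker rhythms were not simulated. All 10 members are described. From each of 8 related lists, up to 6 rhythmic genes by height and the 2 largest mean differences each way could be named; flat ligase genes, cell markers and overlapping neighbours were added. Genes most like Xpa were to be sought only had Xpa been assigned a rhythm. Members and lists were chosen with earlier results of these data known. Python 3.11.15, NumPy 2.4.6, pandas 2.3.3 and Matplotlib 3.10.9 were used.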

Additional observations from a re-analysis of the deposited data

How the results depend on the processing

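The assignment of the 10 genes depends on the weight limit. With a weight of at least 0.8, 3 members had no rhythm and 1, Ddb1, the same rhythm. A minimum height of 0.25 (log2) also left 1 gene with the same rhythm, Xpc, since Ddb1 fell below it. With no minimum weight Ddb2 gave 1 EpiKO-only gene, and with that setting or a limit of 0.4 Xpa joined the shared rhythms. Summed weights over the 10 genes came to 0.598 for EpiKO only and 1.38 for WT only. Summed per gene, an alternative chosen after seeing the data, a limit of 0.8 left 3 genes rhythmic in WT and 1 in EpiKO. Shares of all genes were not computed for the settings of this paragraph and the next.

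For the related lists a limit of 0.8 left 14 flat, 16 WT-only, 4 same-rhythm and 0 EpiKO-only genes. The same-rhythm number was 16 with no minimum weight, 5 with the minimum height and 15.7 as summed weights. That for EpiKO only was 4 with no minimum weight, 2 at 0.4, 0 with the minimum height and 7.52 as summed weights. Among gap filling and ligation genes the same rhythm reached 2 with no minimum weight, 1 at 0.4 and 1.2 as summed weights, and different rhythms fell to 2 at 0.8.

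Means higher in EpiKO numbered 3 with a weight of at least 0.8 and 1 with a difference of at least 0.5 (log2). The 3 lower means all stayed at 0.8 and at 0.5. Among members that overlap no other gene, a setting chosen after seeing the data, 2 were higher and 2 lower. Shares of all genes were not computed for the weight of 0.8 or for members without an overlap. For the difference of at least 0.5 they were 11.7% higher and 23.7% lower. Centring on the median of all genes changed nothing because that median is 0. It had to be 0, since 32.7% of genes were called higher, 37.4% lower and the rest have a difference of 0. This setting therefore could not show a shift of all genes. No paired analysis was possible because the table holds no values per library, and replicates could not be left out for the same reason. Depth is unknown.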

Other observations

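Among the related repair genes the largest mean differences were well beyond those of the 10 core genes. Fen1, the flap endonuclease of base excision repair and replication, differed by -4.84 (log2, EpiKO minus WT). Of its 51-base windows 76.6% are found in transcripts of other genes, matched on either strand. The glycosylase gene Mbd4 differed by -2.62 with 4.89% shared windows, the glycosylase gene Tdg by -2.54 with 40.9%, and the elongation factor gene Tcea1 by -2.09 with 26.5%. In the other direction Pole3, a small subunit of polymerase epsilon, differed by 1.24 with 0% shared windows. What underlies these differences was not tested.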
